A study of Mus musculus with 6 samples.

Results

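Chemokines are small secreted proteins that direct the movement of leukocytes and other cells, and they were examined here together with their receptors in bulk RNA-seq data of mouse tail tendon. Genes were taken by symbol: CC, CXC, CX3C and XC ligands, the signalling receptors of these 4 ligand classes, and the atypical receptors Ackr2, Ackr3 and Ackr4. Of the 44788 symbols in the table of counts, 64 matched, and the 21 with at least 10 counts in 3 or more of the 6 libraries are described as expressed. All 21 were among the 14550 genes that passed the filter on low counts, and 15 of them had at least 10 counts in every library. The other 43 matching genes fell below the rule.

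The study used mice lacking Mohawk (Mkx), a transcription factor of tendon cells, as a model of tendon heterotopic ossification, the formation of bone inside tendon. Tail tendons of 3 WT and 3 Mkx-/- libraries were compared, both on the C57BL/6 strain and given as 3 weeks old in the sample labels, while the text of the paper gives a different age. How the Mkx allele was made is not given in the sources used here. The labels number the libraries within each genotype without naming the animals, so p-values measure the spread between these libraries.

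The libraries held 10835070 to 14160301 counts. Mkx itself had 1825, 1381 and 1685 counts in WT and 620, 589 and 491 in Mkx-/- libraries, a log2 fold change of -1.60 (SE 0.16, adjusted p = 0.00183, edgeR), so reads of the gene remained in the knockout, and counts per gene do not show which exons they came from. One library, WT replicate 3, held 301 counts of the Y-linked gene Ddx3y and 1 of Xist, and the other 5 held 0 and 1289 to 1866. Markers of neutrophils, 10 genes such as S100a8 and S100a9, summed to 28.2 CPM (counts scaled by TMM normalization to a common library size) in WT replicate 1 and 42.2 in Mkx-/- replicate 2, against 1.10 to 4.51 in the remaining libraries. The same libraries had the most lymphocyte marker RNA, 4.41 and 6.11 CPM against 0.64 to 1.77, and were the highest of their genotype for erythroid markers, at 180 and 48.4 CPM. Values without these libraries stand below beside the results of Ackr3, Ackr2, Ackr4, Cx3cr1, Cx3cl1, Ccr1, Ccr2, Ccl6, Ccl9 and Cxcl14.

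A chemokine receptor is a protein that spans the membrane and couples to inhibitory G proteins, so that a cell moves toward the source of the ligand. Atypical receptors bind chemokines without this coupling and remove them from the tissue or transport them, which shapes the gradient seen by other cells. In tendon and other connective tissues, stromal cells are a main source of Cxcl12 and Cxcl14, while most inflammatory CC ligands and their receptors belong to macrophages and other leukocytes.

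The difference between the receptor classes can be read in the genes. In signalling receptors, the third membrane helix ends in the DRYLAIV motif, which takes part in G protein coupling. The coding sequence around it, 39 bases from the GENCODE transcripts of mm9, is shown for 6 expressed receptors because both genes that rose were atypical receptors. Capitals mark codons for a residue other than that of the motif.
Ackr3: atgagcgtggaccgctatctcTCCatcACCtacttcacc
Ackr2: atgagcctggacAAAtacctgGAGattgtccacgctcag
Cxcr4: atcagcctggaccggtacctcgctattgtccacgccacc
Cx3cr1: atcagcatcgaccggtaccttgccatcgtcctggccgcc
Ccr1: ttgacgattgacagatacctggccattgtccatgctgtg
Ccr2: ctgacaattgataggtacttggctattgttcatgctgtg
Ackr3 and Ackr2 each differed from the motif at 2 of its 7 codons, as did Ackr4, which is not shown and did not rise. The 4 signalling receptors shown differed at 0 of 7.

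Ligand classes are named for the spacing of the first cysteines of the mature protein. The stretch is shown for 1 CC ligand, both stromal CXC ligands and the CX3C ligand, with the cysteine codons in capitals.
Ccl11: ccaacttccTGCTGCtttatcatg
Cxcl12: agctaccgaTGCcccTGCcggttcttc
Cxcl14: gggtccaagTGTaagTGTtcccggaag
Cx3cl1: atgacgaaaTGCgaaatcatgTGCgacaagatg
The cysteine codons are adjacent in Ccl11, parted by 1 codon in Cxcl12 and Cxcl14, and parted by 3 in Cx3cl1.

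Of the 21 expressed genes, the atypical receptors Ackr3 and Ackr2 rose in Mkx-/- tendon and none fell. Here and below, a gene rose or fell when edgeR's quasi-likelihood test gave a p under 0.05 after Benjamini-Hochberg adjustment over all 14550 genes. The 2 risen genes compare with 3.18% of all tested genes that rose, and the 0 fallen with 2.26% that fell. With a log2 fold change above 1 also required, 1 of 21 passed, Ackr3, against 1.89% of all genes. At an unadjusted p under 0.05, 3 were higher and 1 was lower, beside 1812 and 1476 of all 14550 tested genes. After adjustment, DESeq2 called the same numbers as edgeR, 2 and 0. In all, 9 of the 21 had a log2 fold change above 0 and 12 below, with a median of -0.095, and the median of all tested genes was -0.0037. Scaling by the total count alone, without TMM, turned Ackr4 and Cxcl16 above 0 and gave 11 above and 10 below, with the median of the 21 at 0.16 and that of all genes at 0.25. The number of risen genes was 0 without WT replicate 2 and 1 without WT replicate 3, Mkx-/- replicate 2 or Mkx-/- replicate 3.

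By role, the test was passed by 2 of the 3 atypical receptors taken by symbol, 0 of 13 ligands and 0 of 5 signalling receptors. The atypical receptor Darc (Ackr1), outside the symbol rule, did not pass (log2 fold change 0.62, edgeR adjusted p = 0.108). The adjusted p-values of the ligands lay between 0.172 and 0.887 and those of the signalling receptors between 0.164 and 0.804. Values of the groups did not overlap for 3 genes that were higher in every Mkx-/- library, Ackr3, Ackr2 and Ccl25, and for 1 that was lower, Cx3cr1. Among all tested genes, 14.6% did not overlap with Mkx-/- higher and 13.6% with Mkx-/- lower.

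**Figure D1:**
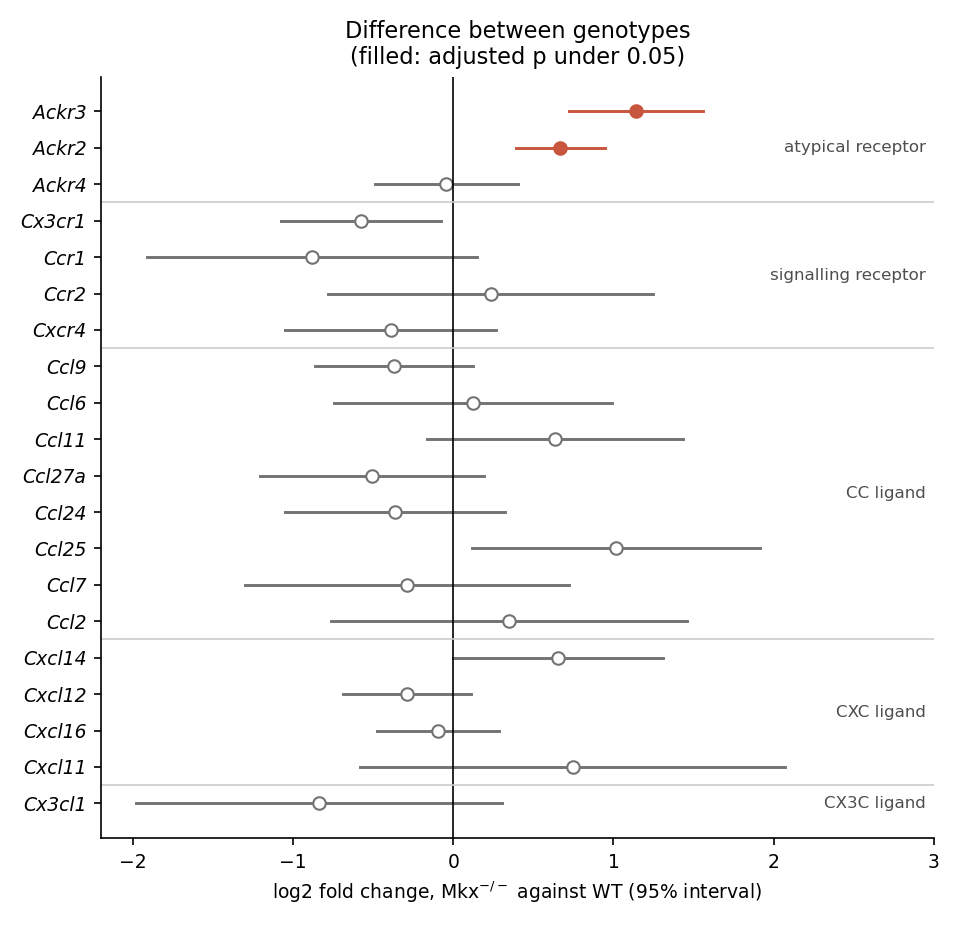
The log2 fold change of Mkx-/- against WT (x axis) for 20 expressed genes, ordered by role, with 95% intervals from the edgeR fit of 3 against 3 libraries as lines. Only Ackr3 (1.14) and Ackr2 (0.67) are filled, marking an adjusted p under 0.05, and the intervals of Ccl25 and Cx3cr1 lie on one side of 0 without passing the adjusted test.

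Ackr3, the atypical receptor that takes up Cxcl12 and Cxcl11, lies on chromosome 1 at chr1:92100555-92113326 on the plus strand of mm9. Its level was 106, 90.1 and 66.2 CPM in the WT libraries and 173, 203 and 203 CPM in the Mkx-/- libraries, from 826 to 2888 counts. Every Mkx-/- library was above every WT library, and WT replicate 3 was the lowest of all. The mean went from 87.5 ± 20.2 to 193 ± 17.2 CPM (SD, n = 3 each), a 2.20-fold rise with a log2 fold change of 1.14 (SE 0.18, 95% interval 0.72 to 1.56, edgeR adjusted p = 0.0131). Leaving out each library in turn gave 0.96 to 1.30, and the call was lost without WT replicate 2 alone, at 1.15 with an adjusted p of 0.0615. Without WT replicate 3, the library with Ddx3y reads, the value was 0.96 (adjusted p = 0.0366), and without both libraries high in neutrophil markers it was 1.26 (adjusted p = 0.00566).

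Ackr2 is a scavenger of inflammatory CC ligands such as Ccl2, Ccl7 and Ccl11, and lies at chr9:121807473-121820182 on the plus strand. It stood at 30.1, 31.3 and 26.9 CPM in WT and at 42.8, 48.8 and 48.7 CPM in Mkx-/- libraries. Again the groups did not overlap, and the spread within each genotype was narrow. The mean rose from 29.4 ± 2.27 to 46.8 ± 3.45 CPM (SD, n = 3 each), 1.59-fold, with a log2 fold change of 0.67 (SE 0.12, 95% interval 0.39 to 0.95, edgeR adjusted p = 0.0211). The size of this difference changed little when libraries were left out, from 0.59 to 0.71, but the adjusted p passed 0.05 without WT replicate 2 (0.0634), WT replicate 3 (0.0911), Mkx-/- replicate 2 (0.0806) or Mkx-/- replicate 3 (0.0770). Without both libraries high in neutrophil markers, it was 0.65 with an adjusted p of 0.0379.

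Ackr4 scavenges Ccl19, Ccl21 and Ccl25 and did not pass the test. Its CPM values were 27.1, 23.2 and 24.4 in WT and 28.7, 17.1 and 26.7 in Mkx-/- libraries, so the groups overlapped, with Mkx-/- replicate 2 as the lowest. The log2 fold change was -0.045, with a 95% interval of -0.49 to 0.40 (adjusted p = 0.924), and its sign turned to 0.22 without both libraries high in neutrophil markers. Exons of Ackr4 overlap those of Acad11 on the opposite strand. As the use of strand in counting is not given in the sources used here, reads of both genes cannot be told apart.

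The promoters of the risen receptors are shown because their genes moved the same way. They come from the RefSeq table of GRCm38.p6, another build than that of the counts, and run from 250 bases before the start of the gene to 50 after it. Of the 4 motifs searched on both strands, TATAAA is a core promoter element and GGGCGG is the box bound by Sp1. The third was ACANNTGT, a palindrome bound by homeodomain proteins of the Iroquois type, to which Mohawk is related, and the last an NF-kB motif of 3 G, any 2 bases, 3 T and 2 C. Capitals mark the matches, and matches may overlap.
Ackr3, chr1:90203730-90204029, plus strand: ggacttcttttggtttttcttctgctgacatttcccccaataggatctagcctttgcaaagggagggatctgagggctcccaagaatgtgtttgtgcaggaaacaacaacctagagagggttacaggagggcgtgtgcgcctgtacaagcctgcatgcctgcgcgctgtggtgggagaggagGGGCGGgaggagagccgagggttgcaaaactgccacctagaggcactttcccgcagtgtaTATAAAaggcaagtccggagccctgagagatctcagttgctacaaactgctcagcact
Ackr2, chr9:121898105-121898404, plus strand: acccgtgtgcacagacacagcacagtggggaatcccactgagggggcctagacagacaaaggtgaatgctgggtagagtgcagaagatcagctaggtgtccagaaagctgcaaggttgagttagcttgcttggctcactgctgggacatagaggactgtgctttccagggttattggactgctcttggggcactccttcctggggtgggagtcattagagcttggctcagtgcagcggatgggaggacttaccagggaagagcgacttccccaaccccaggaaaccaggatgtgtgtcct
The Ackr3 window held 1 TATAAA and 1 GGGCGG, and the Ackr2 window held none of the 4. Of the 32851 promoters in the table, 13.6% held TATAAA, 35.7% GGGCGG, 7.38% ACANNTGT and 1.63% the NF-kB motif. The table held 17 promoters of 14 expressed members, of which 6 contained TATAAA, 7 GGGCGG, 1 ACANNTGT (Ccl25) and 1 the NF-kB motif (Ccl9). A match describes the letters of the window and is not a measured binding site.

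**Figure D2:**
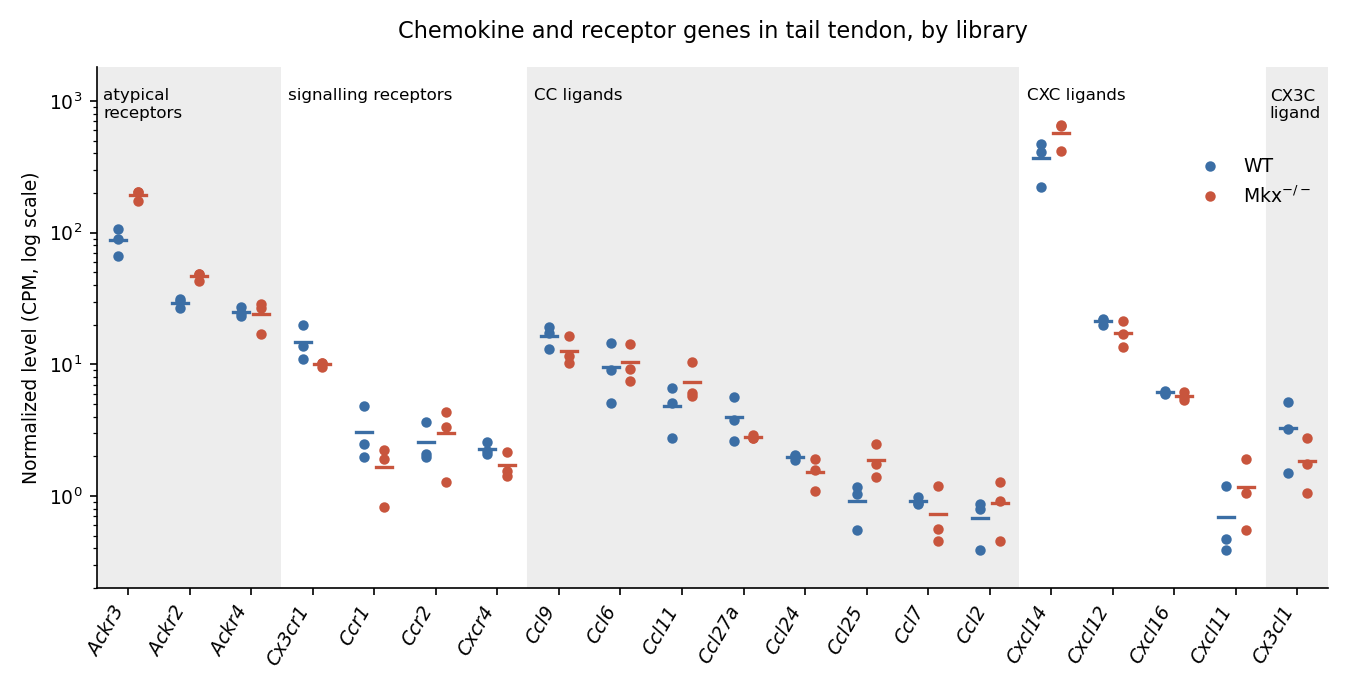
Normalized CPM on a log axis (y) for 20 expressed genes (x), arranged by role, with 1 point per library and bars at the mean of 3 WT (blue) or 3 Mkx-/- (red) libraries. Cxcl14 and Ackr3 lie above all other genes in both genotypes, and the points of the genotypes are fully apart for Ackr3, Ackr2, Ccl25 and Cx3cr1.

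The signalling receptors were few and low beside the atypical ones. Of 18 such genes that matched, 5 met the count rule and 7 had 0 counts in all libraries: Ccr4, Ccr6, Ccr8, Ccr10, Cxcr1, Cxcr6 and Xcr1. To compare genes, CPM were divided by the merged length in kilobases of all annotated exons of the gene. This length was 8176 bases for Cxcl12 and 3348 for Ackr3, so ratios between genes depend on it. On this scale the 5 signalling receptors together reached 7.52, 5.57 and 7.99 CPM per kb in WT and 4.30, 5.53 and 4.92 in Mkx-/- libraries. The 3 atypical receptors together reached 47.7, 42.4 and 34.1 CPM per kb in WT and 72.2, 80.6 and 82.6 in Mkx-/- libraries. Their summed level was therefore 4.27 to 7.62 times that of the signalling receptors in WT and 14.6 to 16.8 times in Mkx-/- libraries, ranges that did not overlap and that were mainly set by Ackr3. As bulk RNA measures the whole tissue, fewer cells of a type and less RNA per cell cannot be told apart.

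Cx3cr1, the receptor of Cx3cl1 on macrophages and monocytes, was the most abundant signalling receptor per kb. It had 13.7, 11.0 and 20.03 CPM in WT and 10.3, 9.48 and 10.3 CPM in Mkx-/- libraries, and every Mkx-/- library was below every WT library. The log2 fold change of -0.58 (SE 0.22, 95% interval -1.08 to -0.077) did not pass the adjusted test (edgeR adjusted p = 0.164). WT replicate 3 carried much of the difference, which was -0.32 without it. The Cx3cr1 value was -0.64 without WT replicate 1, -0.54 without Mkx-/- replicate 2 and -0.60 without both libraries high in neutrophil markers. Cx3cl1, its membrane-bound ligand, had 1.497, 3.24 and 5.21 CPM in WT and 1.74, 1.05 and 2.77 in Mkx-/- libraries, with overlapping groups and a log2 fold change of -0.84 (adjusted p = 0.367). Without WT replicate 3 it was -0.36, and without Mkx-/- replicate 2 or Mkx-/- replicate 3 it was -0.54 or -1.26. Without WT replicate 1 it was -1.20, and without both libraries high in neutrophil markers it was -0.90.

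Markers of macrophages moved in the same direction as Cx3cr1. All 17 tested markers had lower values in Mkx-/- tendon, or 16 of 17 when scaled by the total count alone, with a median log2 fold change of -0.55 against -0.0037 for all genes. Of these, 4 passed the test, Emr1, Mrc1, Csf1r and Mpeg1, beside 2.26% of all tested genes that fell. Their number fell to 1 without Mkx-/- replicate 3 and to 2 without WT replicate 2 or WT replicate 3. It was also 2 when scaled by the total count alone, where Csf1r and Mpeg1 had adjusted p-values of 0.0993 and 0.0544, and it was 6 under DESeq2. The markers summed to 697 to 759 CPM in WT and 445 to 553 CPM in Mkx-/- libraries, and no defining marker was at 0. Whether this difference takes part in the level of Cx3cr1 was not tested.

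Cxcr4, the signalling receptor of Cxcl12, was low, at 26 to 28 counts in WT and 17 to 31 in Mkx-/- libraries. Its CPM were 2.21, 2.55 and 2.08 in WT and 1.56, 2.18 and 1.43 in Mkx-/- libraries, and the groups overlapped. Its log2 fold change of -0.39 had an interval of -1.05 to 0.26 (adjusted p = 0.468), and a difference was not detectable at this depth. Per kb, Ackr3 stood at 17.2 to 26.0 times the level of Cxcr4 in WT and at 50.3 to 76.7 times in Mkx-/- libraries.

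Ccr1 and Ccr2, receptors of inflammatory CC ligands on myeloid cells and lymphocytes, lie 133.2 kb apart on chromosome 9. Ccr1 had 4.81, 1.96 and 2.48 CPM in WT and 0.824, 2.25 and 1.90 in Mkx-/- libraries (log2 fold change -0.88, adjusted p = 0.294). Ccr2, which recruits monocytes, had 3.62, 1.96 and 2.08 CPM in WT and 1.28, 4.36 and 3.33 in Mkx-/- libraries (log2 fold change 0.23, adjusted p = 0.804). Neither passed the test, both overlapped between genotypes, and reads of Ccr2 may be shared with near-identical genes.

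Within each genotype both receptors were highest in the library with the most neutrophil marker RNA, WT replicate 1 and Mkx-/- replicate 2. The same held for Ccl6 and Ccl9, a pair of CC ligands made by myeloid cells that lie 9.2 kb apart on chromosome 11. Of the 21 expressed genes, 10 were highest among WT libraries in WT replicate 1, 8 in replicate 2 and 3 in replicate 3. Among Mkx-/- libraries, 9 were highest in Mkx-/- replicate 2, 10 in replicate 3 and 2 in replicate 1. Ccl6 had 14.7, 9.03 and 5.05 CPM in WT and 7.51, 14.4 and 9.27 in Mkx-/- libraries, and Ccl9 had 19.1, 17.4 and 12.98 in WT and 10.3, 16.3 and 11.6 in Mkx-/- libraries. Their log2 fold changes were 0.12 (adjusted p = 0.887) and -0.37 (adjusted p = 0.360), so the range within a genotype exceeded the difference between genotypes. Without WT replicate 1 alone the value of Ccl6 was 0.58, without Mkx-/- replicate 2 alone it was -0.19, and without both it was 0.27. Ccl9 had -0.59 without Mkx-/- replicate 2 and -0.47 without both. Ccr1 had -0.41 without WT replicate 1 and -0.69 without both, and Ccr2 had 0.58 without WT replicate 1, -0.14 without Mkx-/- replicate 2 and 0.20 without both. Neutrophil markers summed over 10 genes had the values given above, and their part in these levels was not tested.

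**Figure D3:**
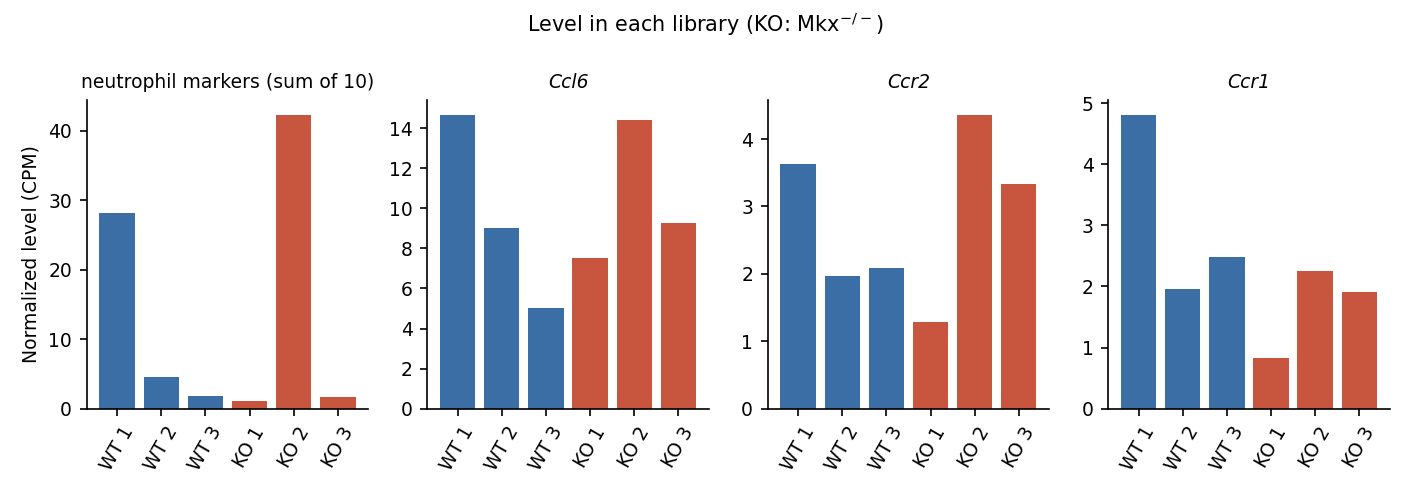
Normalized CPM (y) in each of the 6 libraries (x, WT in blue and Mkx-/- in red) for the sum of 10 neutrophil markers, Ccl6, Ccr2 and Ccr1, with bars from 0. WT replicate 1 and Mkx-/- replicate 2 have the highest bar of their genotype in all 4 panels, 28.2 and 42.2 CPM for the markers. They were the highest of their genotype for 10 and 9 of all 21 expressed genes, and Mkx-/- replicate 3 was the highest of its genotype for 10.

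Ligand RNA was dominated by Cxcl14, a CXC ligand of epithelia and connective tissue that is expressed constitutively and attracts monocytes and dendritic cells (chr13:56390008-56397912, minus strand). Per kb of exon it took 81.9% to 90.5% of the summed level of the 13 expressed ligands in WT and 89.2% to 94.4% in Mkx-/- libraries. The libraries had 222, 468 and 408 CPM in WT and 647, 421 and 661 in Mkx-/- tendon, with the lowest value in WT replicate 1 and Mkx-/- replicate 2 within the WT range. The means were 366 ± 128 and 576 ± 135 CPM (SD, n = 3 each), and the log2 fold change of 0.65 had an interval from -0.0037 to 1.31. It did not pass the test (edgeR adjusted p = 0.224). Scaling by the total count alone gave 0.93 with an adjusted p of 0.0442, and without WT replicate 1 the value was 0.39. Without Mkx-/- replicate 2 it was 0.84, and without both libraries high in neutrophil markers it was 0.58 (edgeR adjusted p = 0.0582).

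Cxcl12 retains haematopoietic cells and progenitors in their niche and is the shared ligand of Cxcr4 and Ackr3 (chr6:117118553-117131385, plus strand). It had 22.0, 19.8 and 21.8 CPM in WT and 13.5, 17.1 and 21.3 in Mkx-/- libraries, where only Mkx-/- replicate 3 reached the WT range. Its log2 fold change was -0.29, with a 95% interval of -0.69 to 0.11 (adjusted p = 0.370). Of this ligand and its pair of receptors, Ackr3 alone passed the test. Per kb, Ackr3 stood at 7.42 to 11.8 times Cxcl12 in WT and 23.2 to 31.4 times in Mkx-/- libraries. This gap mainly restates the rise of Ackr3 and is not a further result.

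Of the remaining CXC ligands, Cxcl16, a membrane-bound ligand of macrophages and endothelium, had 61 to 80 counts in WT and 59 to 80 in Mkx-/- libraries, at 6.13 ± 0.161 and 5.74 ± 0.402 CPM (SD, n = 3 each). The difference, -0.095 on the log2 scale (adjusted p = 0.787), was the smallest among the ligands. Cxcl11, the second ligand of Ackr3, had 6, 4 and 15 counts in WT and 6, 15 and 24 in Mkx-/- libraries. It was the least abundant gene per kb in WT, and the annotation gives it as a processed transcript. Exons of Cxcl16 and Cxcl11 overlap Zmynd15 and Gm2673 on the opposite strand, so their counts are uncertain.

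Among the 8 expressed CC ligands, 4 had values above 0 and 4 below, with a median log2 fold change of -0.084. Summed per kb they reached 17.1 to 22.8 CPM per kb in WT and 17.1 to 24.3 in Mkx-/- libraries, ranges that overlap almost fully. Of these, 3 are bound by Ackr2 and lie side by side on chromosome 11, with gaps of 8.3 kb between Ccl2 and Ccl7 and 10.3 kb between Ccl7 and Ccl11. Ccl11 (eotaxin, which attracts eosinophils) had 2.76, 6.58 and 5.05 CPM in WT and 6.05, 5.76 and 10.4 in Mkx-/- libraries (log2 fold change 0.64, adjusted p = 0.329). Ccl2 and Ccl7, monocyte attractants, had 4 to 11 and 10 to 11 counts in WT and 5 to 16 and 5 to 15 in Mkx-/- libraries. None of these passed the test, and all overlapped between genotypes.

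Ccl25, known for the homing of T cells to thymus and gut, was low but higher in every Mkx-/- library. It had 7, 12 and 13 counts in WT and 27, 20 and 22 in Mkx-/- libraries, or 0.551, 1.18 and 1.04 against 2.47, 1.41 and 1.74 CPM. The log2 fold change of 1.02 (SE 0.39, 95% interval 0.11 to 1.92) did not pass the adjusted test (edgeR adjusted p = 0.172). Its signalling receptor Ccr9 fell below the count rule, and its scavenger Ackr4 overlapped between genotypes.

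The other CC ligands showed no difference beyond the spread. Ccl24, a second eotaxin, had 21 to 25 counts in WT and 12 to 27 in Mkx-/- libraries (log2 fold change -0.36, adjusted p = 0.526). Ccl27a, a ligand of skin-homing T cells, had 33 to 58 and 30 to 39 counts (log2 fold change -0.50, adjusted p = 0.376). Ccl27a overlaps Il11ra1 on the opposite strand and has a near copy, Ccl27b, so its counts are uncertain.

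Of the 43 genes below the rule, 20 had 0 counts in all 6 libraries and 23 had at least 1. The highest count was 15, of Ccl12 in WT replicate 3, and Ccl12 and Ccl27b were the only 2 genes that reached 10 counts in any library. Those at 0 included Ccl17, Ccl19, Ccl20, Cxcl3, Cxcl5, Cxcl13 and Xcl1, ligands of dendritic cells, lymphocytes and neutrophils. Genotypes were not compared for these genes.

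Genes that the symbols leave out, of the family or related to it, were examined as a list of 19, of which 13 were tested. None rose and 1 fell, beside 3.18% and 2.26% of all tested genes. The fallen gene was Cmtm8, a membrane protein gene named after chemokine-like factor and not a chemokine. It went from 4.58 ± 0.993 to 1.76 ± 0.439 CPM (SD, n = 3 each, log2 fold change -1.39, edgeR adjusted p = 0.0334). This call was lost without WT replicate 2 (adjusted p = 0.0968), WT replicate 3 (0.117), Mkx-/- replicate 2 (0.100) or Mkx-/- replicate 3 (0.0875). Darc, the older symbol of the atypical receptor Ackr1 on venules and red cells, had 11.0 ± 0.909 CPM in WT and 17.0 ± 4.09 in Mkx-/- libraries (SD, n = 3 each). It was higher in every Mkx-/- library but did not pass the test (log2 fold change 0.62, adjusted p = 0.108). Ccrl2, a receptor-like gene of the list, overlapped between genotypes (log2 fold change -0.41, edgeR adjusted p = 0.741). Pf4, a CXC ligand of platelets and macrophages, was lower in every Mkx-/- library, at 26.4 ± 1.33 and 19.1 ± 2.71 CPM (SD, n = 3 each), and did not pass either (log2 fold change -0.46, adjusted p = 0.0884).

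Downstream of the receptors, 36 of 40 genes of G proteins, receptor kinases, arrestins, RGS proteins, PI3K-gamma and migration were tested. Of these, 2 rose and 2 fell, beside 3.18% and 2.26% of all tested genes. The median log2 fold change of the list was 0.093. Grk5, a kinase that phosphorylates active receptors, rose from 13.2 ± 2.33 to 30.4 ± 3.39 CPM (SD, n = 3 each, log2 fold change 1.20, adjusted p = 0.00588), and kept its call when any library was left out. Rgs16, which shortens G protein signals, rose from 2, 1 and 4 counts to 14, 18 and 18 (log2 fold change 2.69, adjusted p = 0.0175). Arrb1, which encodes the arrestin that binds phosphorylated receptors and Ackr3, fell from 110 ± 15.1 to 64.6 ± 1.98 CPM (SD, n = 3 each, log2 fold change -0.76, adjusted p = 0.0168), while its relative Arrb2 had a log2 fold change of -0.18 (adjusted p = 0.487).

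Pik3r6, a regulatory subunit of PI3K-gamma in myeloid cells, fell from 526, 212 and 212 counts to 47, 121 and 79 (log2 fold change -2.04, adjusted p = 0.0206). The calls of Arrb1 were lost without WT replicate 2, Mkx-/- replicate 2 or Mkx-/- replicate 3, with adjusted p-values of 0.0577, 0.0649 and 0.0695, and when scaled by the total count alone (log2 fold change -0.52, adjusted p = 0.0848). Those of Pik3r6 were lost without WT replicate 2, Mkx-/- replicate 1 or Mkx-/- replicate 3 (0.0563, 0.0522 and 0.0716), and those of Rgs16 without WT replicate 2, Mkx-/- replicate 2 or Mkx-/- replicate 3 (0.0775, 0.0586 and 0.0624) or without both libraries high in neutrophil markers (0.0579). With the replicate number as a block in the fit, the calls of Pik3r6 and Rgs16 were also lost.

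The cytokines and NF-kB genes that induce many chemokines did not pass the test in either direction. Of 26 listed, 19 were tested, with a median log2 fold change of 0.0095. At an unadjusted p under 0.05, 1 was higher and 1 lower, beside 1812 and 1476 of all 14550 tested genes. The lower one was Cebpb, a transcription factor of acute inflammation, at 23.7 ± 5.08 and 12.5 ± 4.23 CPM (SD, n = 3 each, log2 fold change -0.92, adjusted p = 0.0835), and DESeq2 called 1 gene of this list lower. Tnf had 0 to 4 counts, Il1b 0 to 5 and Il6 0 to 1 in the 6 libraries, too few to be tested, and Ifng had 0 in all.

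**Figure D4:**
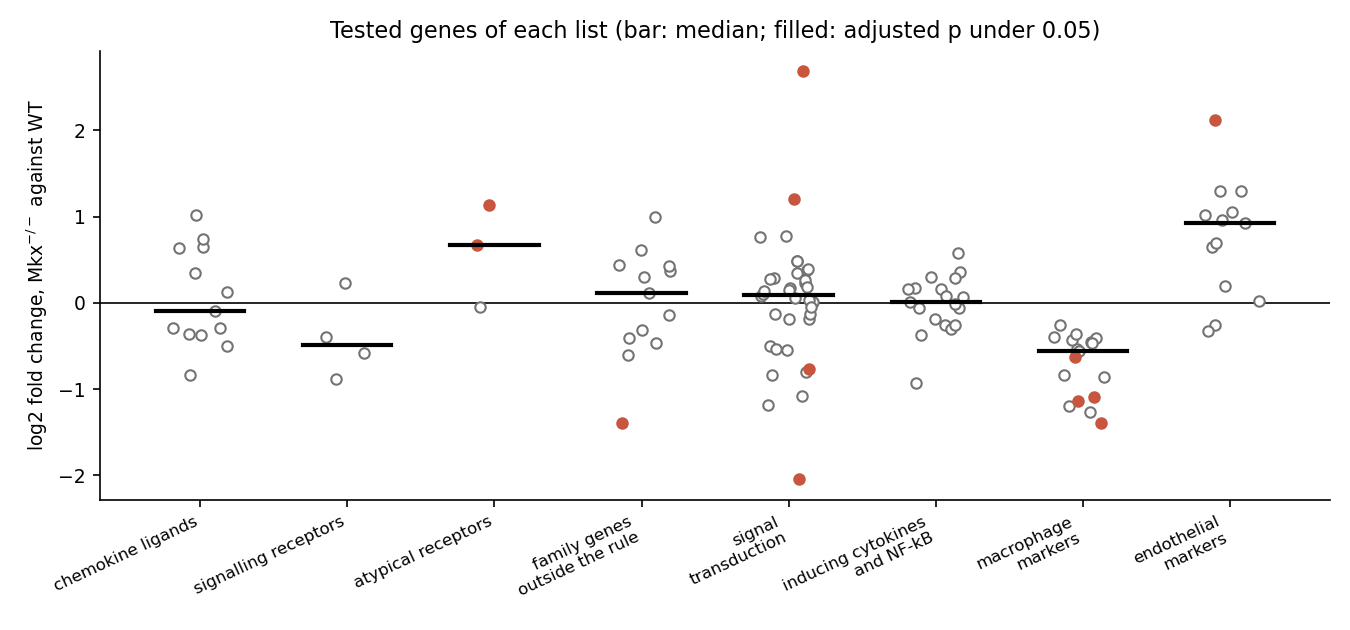
The log2 fold change of Mkx-/- against WT (y) for the tested genes of 8 groups (x), 1 signalling receptor not plotted, with bars at the median of the points and filled points for an adjusted p under 0.05. Ligands scatter around 0, and 2 of the 3 atypical receptors taken by symbol are filled above 0. All 17 macrophage markers lie below 0 (16 when scaled by the total count alone), and 11 of 13 endothelial markers lie above 0.

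Summed markers of other cell types were compared between the genotypes, since several of these cells can express atypical receptors. Among all tested genes, 3.18% rose and 2.26% fell. Endothelial markers summed to 80.3 to 102 CPM in WT and 134 to 209 in Mkx-/- libraries, with 11 of 13 higher, 1 passing the test (Erg) and none at 0. Without Erg the sums overlapped, at 73.5 to 93.1 CPM in WT and 89.8, 106 and 182 in the Mkx-/- libraries. The highest of these was Mkx-/- replicate 3, which stood apart from the others. Stromal progenitor markers summed to 2664 to 3531 CPM in WT and 4099 to 4433 in Mkx-/- libraries, with 8 of 9 higher and 3 risen, Cd44, Itm2a and Ly6a. In the study, Itm2a marked tenoblasts rather than progenitors. Lymphatic markers, of the cells best known for Ackr2, overlapped at 66.5 to 90.2 CPM in WT and 75.4 to 97.4 in Mkx-/- libraries. Lyve1 and Pdpn made most of these sums, with means of 41.2 and 39.9 CPM in WT and 43.4 and 40.3 in Mkx-/- libraries. The defining lymphatic gene Prox1 had 0 to 1 count, so the sums say little about lymphatic cells. Keratinocyte markers summed to 1.02 to 10.7 CPM in WT and 13.8 to 20.6 in Mkx-/- libraries, with 0 of 4 tested genes past the test. Skeletal muscle markers summed to 101 to 393 and 562 to 2716 CPM, with 3 of 16 risen, and Schwann cell markers to 7565 to 10031 and 11817 to 22035 CPM, with 0 of 7 past the test. Of 8 mast cell markers only Kit was abundant enough to be tested, and it fell (log2 fold change -2.02, adjusted p = 0.00283), while the other 7 had 0 to 11 counts in any library. The part of these cells in the levels of Ackr3, Ackr2 and Cxcl14 was not tested.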

How the data were processed

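Total RNA of tail tendons from 3 WT and 3 Mkx-/- samples was sequenced on the Ion Proton system. The authors removed adaptors and low-quality reads, aligned to mm9 with MapSplice, and deposited raw counts per gene symbol, whole numbers without normalization. The counting program, the annotation it used, and how it handled strand and multi-mapped reads are not given in the sources used here. All 6 columns were matched to samples by name, and 0 were unused.

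From the deposited counts, edgeR 4.0.16 (R 4.3.3) gave TMM-normalized CPM, log2 fold changes and p-values (filterByExpr, quasi-likelihood fit on genotype alone, Benjamini-Hochberg adjustment over 14550 genes). DESeq2 1.42.0, the study's tool, was an alternative. SE is the fold change divided by the root of F, and 95% intervals are approximate. The smallest two-sided p of an exact permutation test of 3 against 3 is 0.1, so p-values come from the fit across all genes. Depth was 10835070 to 14160301 counts, so genes near 10 counts have a large counting error. On simulated counts of this comparison, in which 200 of 14550 genes differed by 2 on the log2 scale, edgeR recovered 181 with 7 false calls. DESeq2 recovered 181 with 19 false calls. A difference of 2 exceeds those of Ackr3 (1.14) and Ackr2 (0.67), so recovery at their size was not tested.

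The expressed genes and the lists of pathway and marker genes were chosen with earlier results of these data known. All expressed members are named, except 1 that is not reported here and is held only in counts and sums. Of the other lists, genes past the test are named. Cebpb, Darc, Ccrl2, Pf4, Arrb2, Tnf, Il1b, Il6, Ifng, Prox1, Lyve1 and Pdpn were named after their values were seen. Coordinates and coding sequences are from the GENCODE annotation of mm9, where Ackr2, Ackr3 and Ackr4 have older names. Ackr4 and Ccl25 have 2 records each and get no coordinates. Same-numbered libraries of the 2 genotypes did not deviate together, so no replicate block was used. The alternatives were other scalings, filters, DESeq2, a robust fit, the replicate block and each library left out.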

Additional observations from a re-analysis of the deposited data

How the results depend on the processing

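Scaling by RLE or upper quartile, a robust fit, DESeq2 and both filters on low counts left Ackr3 and Ackr2 past the test, and 0 members fell under any setting. The number of members that rose was 2, with 3 under scaling by library size, where Cxcl14 reached 0.93 (adjusted p = 0.0442), 1 with the replicate number as a block, and 0 to 2 when 1 library was left out. It was 0 without WT replicate 2 and 1 without WT replicate 3, Mkx-/- replicate 2 or Mkx-/- replicate 3. Leaving out 1 library gave 0.96 to 1.30 for Ackr3 and 0.59 to 0.71 for Ackr2. With the replicate block, Ackr3 gave 1.16 (adjusted p = 0.0438) and Ackr2 0.67 (adjusted p = 0.0600), and 1 macrophage marker fell in place of 4. Correlations of same-numbered libraries were -0.0197, -0.257 and 0.327, so the numbers do not pair them. Of all genes, 463 rose and 329 fell, against 1358 and 197 under library size scaling, 768 and 565 under DESeq2, 970 and 594 with a filter of 1 count in any library, 264 and 170 with the block, and 117 to 539 and 127 to 439 when 1 library was left out. The share of calls that were higher was 58.5%, and 87.3% under library size scaling. The sign turned for Ackr4 under library size scaling (0.20), without both libraries high in neutrophil markers (0.22, an alternative chosen after seeing the data) and over the range without 1 library (-0.21 to 0.15). It also turned for Ccl6 (-0.20 to 0.58) and Ccr2 (-0.14 to 0.58) in that range, and for Cxcl16 under library size scaling (0.16). The cause was not tested for any of these. The alternatives for genes of the pathway and macrophage lists were also added after seeing the data. The filter of 10 counts in every library tested 15 of the 21 members.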
